A study of Mus musculus with 4 samples.

Results

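Leukocyte lineage genes were examined in RNA of airway smooth muscle cells sorted from adult mouse lung. The list holds 40 genes of white blood cells, taken by symbol, and 39 of them had a named probe set among the 23185 named genes of the table. Lyz2, the lysozyme gene of macrophages and neutrophils, is not analysed here. By lineage, the measured members comprise 3 genes of all leukocytes, 8 shared by myeloid cells, 13 of macrophages, 2 of monocytes, 4 of T cells, 3 of B cells, 3 of cytotoxic lymphocytes and 3 of neutrophils and acute inflammation.

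All mice carried Acta2-hrGFP, a green reporter under the smooth muscle actin promoter, and Cspg4-DsRED, a red reporter of pericytes and vascular muscle, and green cells without red were collected by flow cytometry. BMS mice ate powdered vitamin A-sufficient food for 3 days that held 5 mcg per gram of BMS, a pan-receptor antagonist of retinoic acid, and CTR mice the same powdered food with corn oil. VAD mice ate a vitamin A-deficient diet below 0.1 IU per gram, for 3 days in the sample label and 5 days elsewhere in the protocol, and VAS mice a sufficient diet with 15 IU per gram. Each group was 1 array of RNA pooled from 3 mice, so no group has a replicate, and strain, sex and exact age are not stated in the labels. The comparisons ask how lowered retinoic acid signalling, by diet or by antagonist, bears on airway muscle, and the 2 vitamin A-sufficient pools, CTR and VAS, also differ in food form, vehicle, experiment and mice. All levels below are RMA values on the log2 scale, and an RNA level in a pool cannot tell fewer cells of a type from less RNA per cell.

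Leukocytes share the surface phosphatase CD45, encoded by Ptprc, and split into a myeloid branch of macrophages, monocytes and neutrophils and a lymphoid branch of T, B and natural killer cells. In lung, macrophages live in the airspaces and in the tissue around airways and vessels, and neutrophils are abundant in the lung's blood vessels. The myeloid and lymphoid genes are listed here as genes of leukocytes, and whether smooth muscle cells also expressed them was not tested. All 11 genes of a smooth muscle list were above 6.05, the median of all named values, on every array, and Acta2 stood at 11.95 on BMS, 11.98 on CTR, 12.12 on VAD and 11.96 on VAS. Cspg4, the gene of the red reporter, stood at 7.98 on BMS, 8.08 on CTR, 8.22 on VAD and 7.71 on VAS. Of the 39 leukocyte genes, 15 lay above that median on all 4 arrays, 13 on some and 11 on none. Of all 23185 named genes, 10798 lay above it on all arrays, 1597 on some and 10790 on none. Whether a low value differed from the array's background is unknown, since no scanner intensities were used here.

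The leukocyte genes were mostly lower in the antagonist experiment than in the diet experiment, led by neutrophil genes and by the myeloid genes Lilrb4a and Tyrobp. Of the 39, 28 were lower on both arrays of the antagonist experiment (BMS and CTR) than on both arrays of the diet experiment (VAD and VAS), or 71.8%, where 19.8% of all named genes were. On the mean of the 2 arrays, 38 of 39 were lower in the antagonist experiment (48.3% of all named genes were), with a median difference of -0.60, against a median of 0.01 over all named genes. The lowest array was CTR for 25 members (24.7% of all named genes), BMS for 12 (25.0%), VAD for 2 (22.7%) and VAS for 0 (27.6%). The highest was VAS for 21 members (27.9% of all named genes), VAD for 15 (19.4%), CTR for 2 (27.1%) and BMS for 1 (25.5%). In limma's fit with experiment and lowered retinoic acid signalling as terms, 0 of 39 members passed an adjusted p of 0.05 for the experiment (0.0% of all named genes did), and the lowest adjusted p among them was 0.236. At an unadjusted p under 0.05 there were 21 members, all lower in the antagonist experiment, where 9.09% of all named genes passed, 5.49% lower and 3.6% higher. The experiments differ in food form, vehicle and mice, which cannot be told apart.

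**Figure D1:**
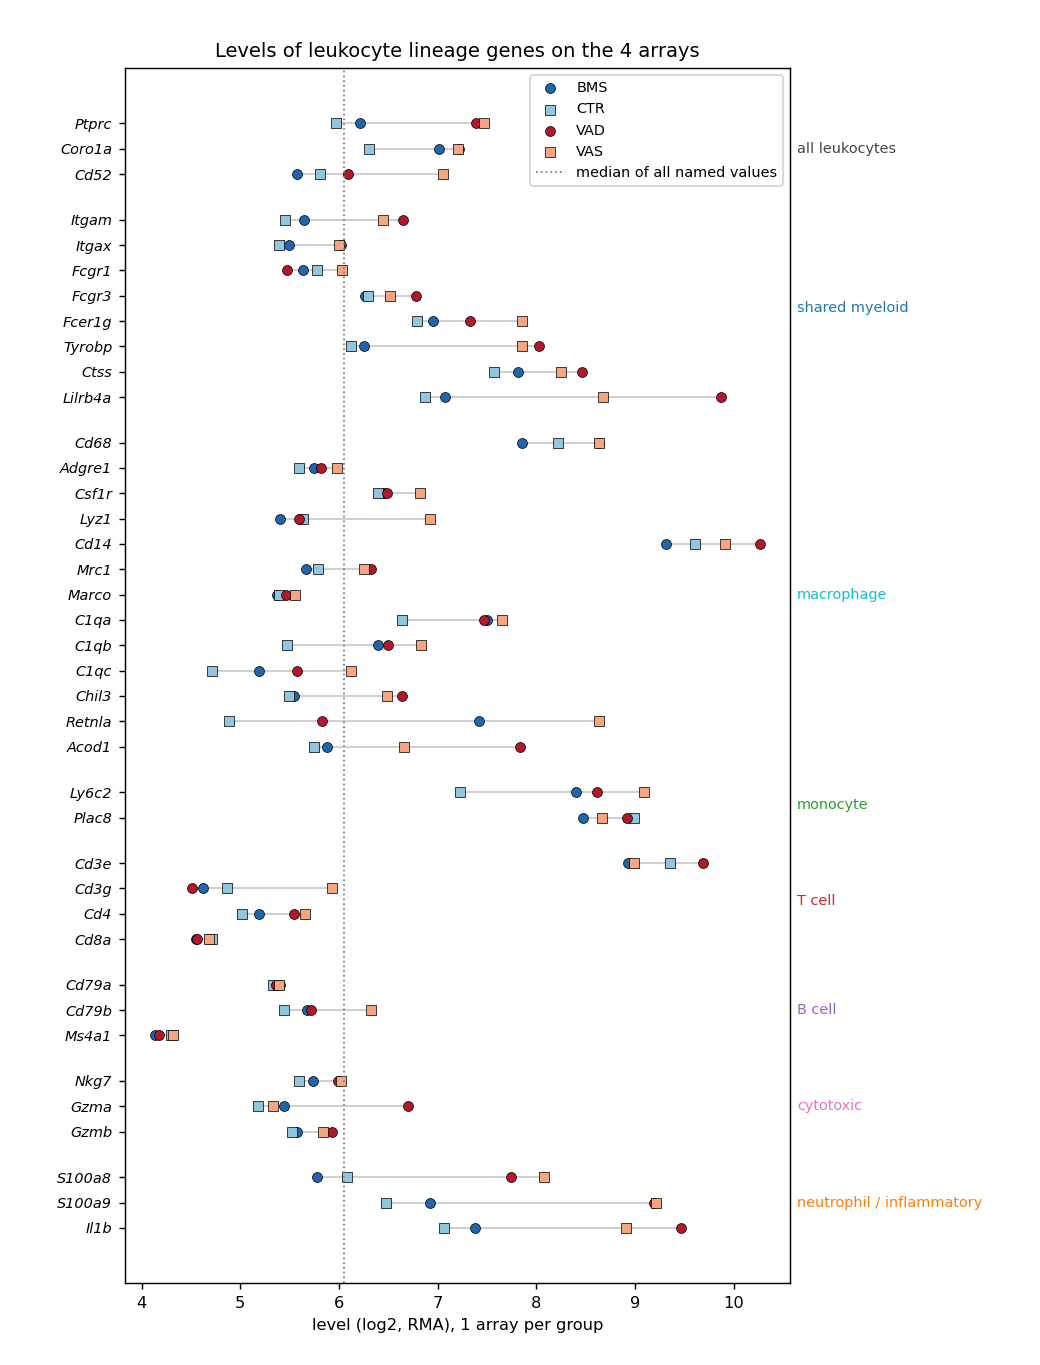
Levels of the 39 measured genes on the log2 scale (x axis), 1 point per array, with BMS and CTR in blue and VAD and VAS in red, genes grouped by lineage, and a dotted line at 6.05, the median of all named values. The blue points lie left of the red ones for 28 genes, most widely for S100a9, Lilrb4a, Il1b, S100a8 and Tyrobp, while the B cell genes Cd79a and Ms4a1 hardly vary.

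Neutrophil and acute inflammation genes had the lowest list median between the experiments. S100a9, a subunit of the calcium-binding protein calprotectin that fills neutrophil cytoplasm, stood at 6.93 on BMS and 6.47 on CTR, against 9.19 on VAD and 9.21 on VAS. Its partner subunit S100a8 stood at 5.77 on BMS and 6.08 on CTR, against 7.74 on VAD and 8.08 on VAS. Il1b, the fever cytokine interleukin 1 beta of activated myeloid cells, stood at 7.38 on BMS and 7.06 on CTR, against 9.46 on VAD and 8.90 on VAS. For all 3 genes the antagonist experiment was low and the diet experiment high, without overlap. The mean differences were -2.50 for S100a9, -1.98 for S100a8 and -1.96 for Il1b, which is 5.66-fold, 3.95-fold and 3.89-fold (limma, adjusted p = 0.236 for each). Within an experiment the 3 genes differed less, from -0.34 to 0.56 for VAD minus VAS and from -0.30 to 0.45 for BMS minus CTR.

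Other neutrophil genes that are not on the list were set beside them. Of 16, 14 were lower on both antagonist arrays than on both diet arrays (19.8% of all named genes were). The median difference between the experiments was -1.04. In limma 12 were lower at an unadjusted p under 0.05 (5.49% of all named genes were), and 0 had an adjusted p under 0.05. Il1r2, the decoy receptor of interleukin 1, stood at 5.88 on BMS and 5.63 on CTR, against 7.80 on VAD and 7.53 on VAS. Ngp, a granule protein of immature neutrophils, stood at 5.18 on BMS and 4.67 on CTR, against 6.26 on VAD and 7.46 on VAS. CTR minus VAS was -1.65 for Clec4d, a lectin receptor of myeloid cells, and -1.53 for Lcn2, an iron-trapping granule protein. Elane and Mpo, granule enzymes made in bone marrow precursors, ranged only from 5.45 to 5.73 and from 5.78 to 5.92. In VAD 13 of these 16 genes were above VAS and 3 below (51.4% of all named genes were below), with a median of 0.25. Only Ngp passed 2-fold, at -1.20.

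The promoters of the calprotectin pair are shown because the genes neighbour each other on chromosome 3 and were both high on the VAD and VAS arrays. GAGGAA, a core of sites bound by the myeloid regulator PU.1, was searched on both strands of RefSeq promoters (GRCm38.p6, 250 bases before to 50 after the start). Capitals mark it, or TTCCTC where it lies on the other strand. The S100a8 promoter (chr3:90668821-90669120 on the plus strand) holds 2 matches, both on the other strand, and that of S100a9 (chr3:90695672-90695971 on the minus strand) 0.
S100a8: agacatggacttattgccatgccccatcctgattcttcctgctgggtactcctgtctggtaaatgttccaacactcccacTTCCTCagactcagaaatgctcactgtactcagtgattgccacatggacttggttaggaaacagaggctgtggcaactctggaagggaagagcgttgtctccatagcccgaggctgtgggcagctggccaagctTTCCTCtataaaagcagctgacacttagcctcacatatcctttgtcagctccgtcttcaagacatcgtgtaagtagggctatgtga
S100a9: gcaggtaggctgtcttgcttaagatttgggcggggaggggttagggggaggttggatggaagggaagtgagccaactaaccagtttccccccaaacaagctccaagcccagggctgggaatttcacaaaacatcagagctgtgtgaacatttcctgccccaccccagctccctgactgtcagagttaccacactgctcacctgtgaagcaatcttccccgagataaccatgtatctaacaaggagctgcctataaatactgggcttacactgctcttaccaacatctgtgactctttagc
In all, 28.3% of 32851 promoters hold the core, as do 21 of 34 promoters of measured members (61.8%), and by gene 19 of the 29 members found in the table. By lineage it was found for 1 of 3 neutrophil genes, 7 of 9 macrophage genes, 4 of 6 shared myeloid genes, 2 of 2 monocyte genes and 1 of 2 genes of all leukocytes. In lymphocyte lineages it was found for 2 of 3 T cell genes, 1 of 1 B cell gene and 1 of 3 cytotoxic genes. A match is a run of letters and not a bound site.

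Genes shared by myeloid cells were next. Tyrobp, the adaptor DAP12 that carries signals of activating myeloid receptors, stood at 6.25 on BMS and 6.12 on CTR, against 8.03 on VAD and 7.86 on VAS. The other activating adaptor, Fcer1g, stood at 6.95 on BMS and 6.79 on CTR, against 7.33 on VAD and 7.86 on VAS. Both were lower throughout the antagonist experiment, by 3.39-fold for Tyrobp and 1.65-fold for Fcer1g on the mean (limma, adjusted p = 0.236 and 0.519). Itgam, the integrin chain CD11b, stood at 5.64 on BMS and 5.45 on CTR, against 6.65 on VAD and 6.44 on VAS. Itgax, the CD11c chain of dendritic cells and airspace macrophages, ran from 5.39 to 6.02, and Ctss, a lysosomal protease for antigen processing, from 7.57 to 8.46, with the same order of experiments. The Fc receptor genes differed less, with mean differences of -0.37 for Fcgr3 and -0.05 for Fcgr1, and Fcgr1 was the shared myeloid gene whose arrays overlapped between experiments.

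Lilrb4a, an inhibitory receptor of myeloid cells, stood at 7.07 on BMS and 6.87 on CTR, against 9.87 on VAD and 8.67 on VAS. It was the member with the second widest range, 3.00, and VAD alone stood at the top. Whether its probes also read its paralogue Lilr4b, which had no named probe set, is unknown. Acod1, which makes itaconate in activated macrophages, had the same order, with 5.88 on BMS and 5.75 on CTR, against 7.83 on VAD and 6.66 on VAS. Between the experiments the means differed by -2.30 for Lilrb4a and -1.43 for Acod1 (limma, adjusted p = 0.367 and 0.456).

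The genes of all leukocytes were also lower on both antagonist arrays. Ptprc itself stood at 6.21 on BMS and 5.97 on CTR, against 7.39 on VAD and 7.47 on VAS, a mean difference of -1.34 (limma, adjusted p = 0.313). Coro1a, an actin-binding protein of leukocytes, stood at 7.01 on BMS and 6.30 on CTR, against 7.22 on VAD and 7.20 on VAS, so CTR was the low array. Cd52, a small surface glycoprotein of lymphocytes and some myeloid cells, stood at 5.58 on BMS and 5.81 on CTR, against 6.09 on VAD and 7.06 on VAS, so VAS was the high one. Of 17 further genes of all leukocytes, 14 were lower on both antagonist arrays (19.8% of all named genes were), with a median of -0.55. CTR minus VAS was -1.22 for Lcp1, an actin-bundling protein, -1.24 for Laptm5, a lysosomal membrane protein, and -1.39 for Cd53, a tetraspanin.

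**Figure D2:**
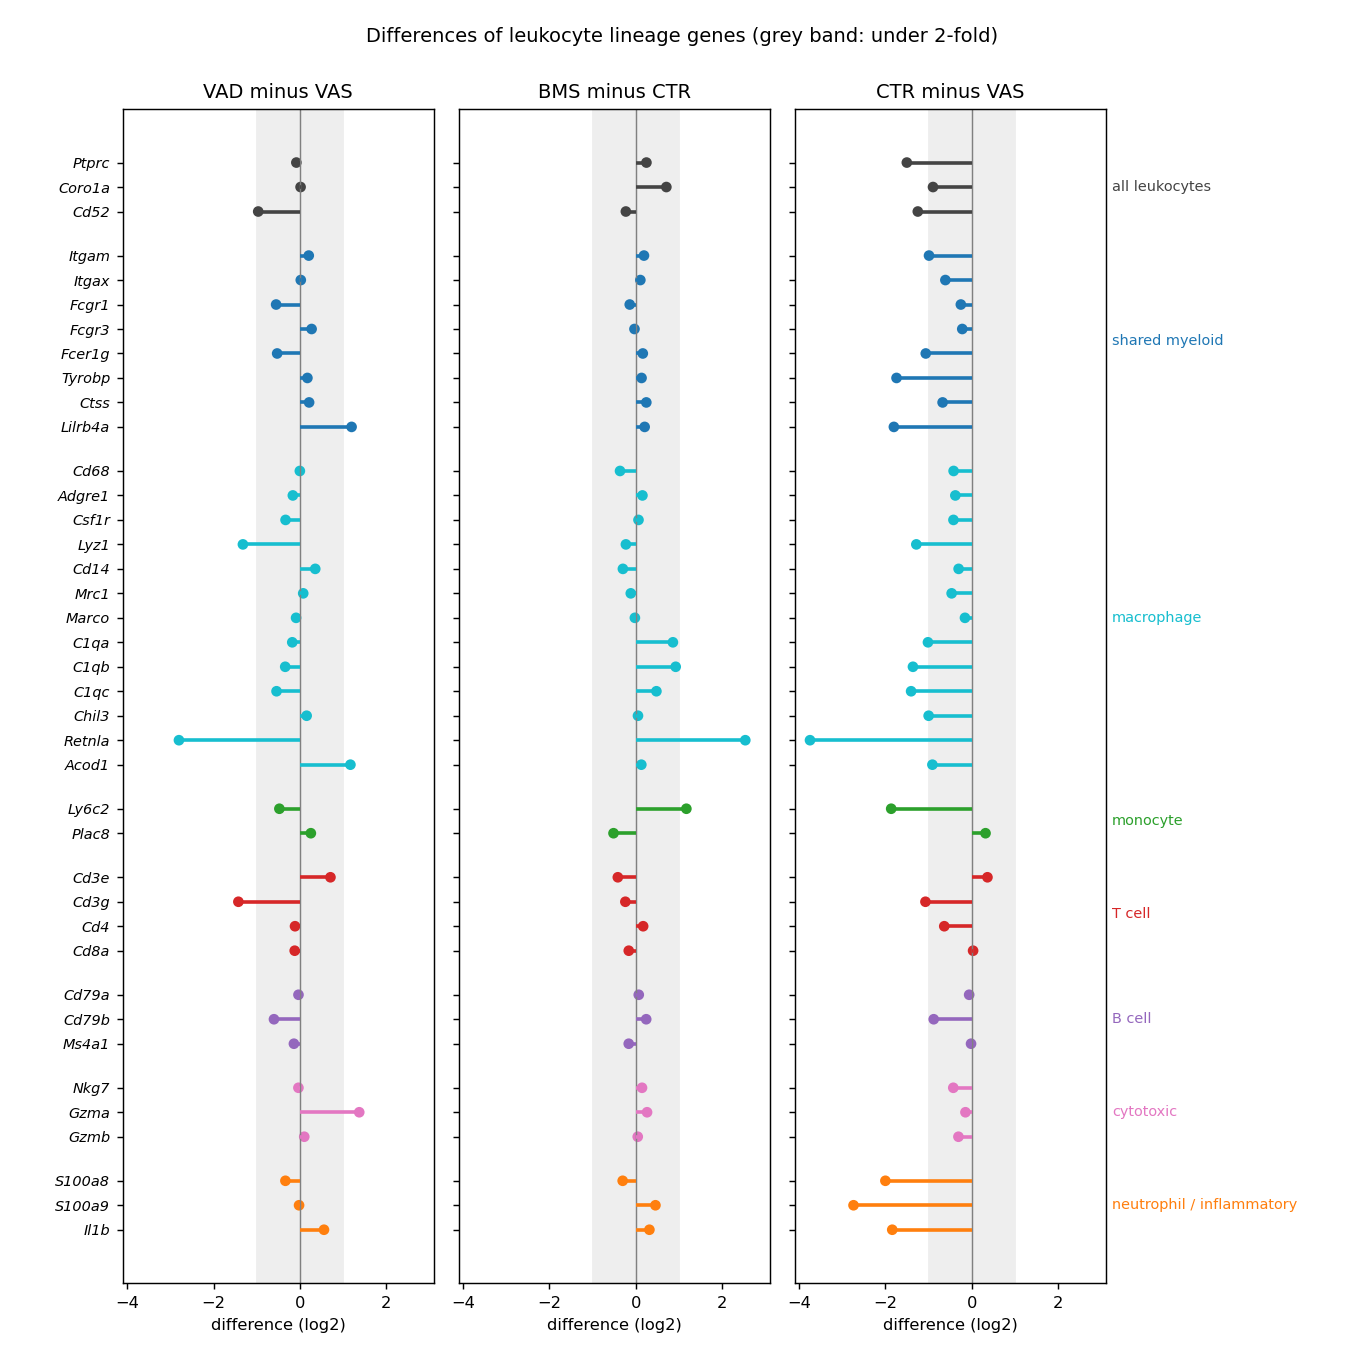
Differences of the 39 genes on the log2 scale in 3 panels, VAD minus VAS, BMS minus CTR and CTR minus VAS, with a grey band where the difference is under 2-fold and colours by lineage. In the right panel 15 genes reach past the band to the left and none to the right, while the left panel has 3 on each side and the middle panel 2 on the right.

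The control pools, both on sufficient food, were compared next. Of the members, 36 were lower in CTR than in VAS (49.8% of all named genes were). In CTR 15 of 39 members were at least 2-fold lower than in VAS (38.5%), where 1.16% of all named genes were, and 0 were 2-fold higher, where 0.311% were. The member median was -0.88 and that of all named genes 0.0. The 15 were Ptprc, Cd52, Fcer1g, Tyrobp, Lilrb4a, Lyz1, C1qa, C1qb, C1qc, Retnla, Ly6c2, Cd3g, S100a8, S100a9 and Il1b. By lineage that was 12 of 26 myeloid genes, with a median of -0.99, and 1 of 10 lymphocyte genes, with a median of -0.23. Plac8, Cd3e and Cd8a were higher in CTR than in VAS, by 0.32, 0.36 and 0.03. Over 139 further leukocyte genes, 20 were 2-fold lower in CTR and 0 higher, 9 of the 20 from the neutrophil list. These differences compare 1 array with 1 array and carry no test, and they share the CTR array with BMS minus CTR and the VAS array with VAD minus VAS.

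Antigen presentation genes from a dendritic cell list were low in CTR beside them. The class II histocompatibility genes H2-Ab1, H2-Aa and H2-Eb1 differed by -1.77, -1.73 and -1.39 in CTR minus VAS, while 11 of the 14 genes on that list differed less than 2-fold. Among 17 genes of tissue macrophages the median was -0.52, and 16 were below 0 (49.8% of all named genes were). At least 2-fold lower were 3 of the 17 (1.16% of all named genes were). The 3 were the platelet and macrophage chemokine gene Pf4, at -1.89, the lectin receptor gene Cd209f, at -1.51, and Ms4a7, at -1.24. Cd209f and Ms4a7 lay below the median of all named values on every array. The list of airspace macrophage genes had a median of -0.28 in CTR minus VAS, with 0 of 16 past 2-fold. Its largest difference was -0.66, for Fabp1. Of these 16 genes, 15 were below 0 (49.8% of all named genes were).

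All 13 measured macrophage members were lower on the mean in the antagonist experiment (48.3% of all named genes were). Of these, 10 were lower on both its arrays (19.8% were), and all 13 were lower in CTR than in VAS (49.8% were). The sizes of the differences varied. The scavenger receptor Marco, typical of airspace macrophages, ran from 5.37 to 5.55 over the 4 arrays, and Adgre1, a surface receptor used to define mouse macrophages, from 5.60 to 5.98, both below the median of all named values throughout. Csf1r, the receptor for macrophage growth factor, stood at 6.46 on BMS and 6.39 on CTR, against 6.48 on VAD and 6.82 on VAS. Mrc1, the mannose receptor, stood at 5.67 on BMS and 5.78 on CTR, against 6.32 on VAD and 6.25 on VAS. Cd68, a lysosomal glycoprotein, and Cd14, the lipopolysaccharide co-receptor, ran from 7.85 to 8.63 and from 9.31 to 10.27. Marco, Adgre1, Csf1r, Mrc1, Cd68 and Cd14 differed by under 2-fold between any 2 arrays. Chil3, the chitinase-like protein Ym1 of airspace macrophages and some neutrophils, stood at 5.54 on BMS and 5.49 on CTR, against 6.64 on VAD and 6.49 on VAS.

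The 3 chains of complement C1q, the pattern-recognition protein that tissue macrophages secrete, had CTR as their lowest array. C1qb stood at 6.39 on BMS and 5.47 on CTR, against 6.49 on VAD and 6.83 on VAS. C1qa stood at 7.49 on BMS and 6.64 on CTR, against 7.47 on VAD and 7.65 on VAS, and C1qc at 5.19 on BMS and 4.71 on CTR, against 5.58 on VAD and 6.12 on VAS. BMS was 0.92, 0.86 and 0.48 above CTR for C1qb, C1qa and C1qc, and stayed 0.44, 0.16 and 0.93 below VAS. VAD was 0.34, 0.18 and 0.54 below VAS. The genes lie side by side on chromosome 4, and each was lowest on CTR and highest on VAS, so the promoters at hand are shown. The promoters of C1qb (chr4:136886151-136886450 on the minus strand) and C1qc (chr4:136892865-136893164 on the minus strand) each hold 1 match to the core, the second on the other strand.
C1qb: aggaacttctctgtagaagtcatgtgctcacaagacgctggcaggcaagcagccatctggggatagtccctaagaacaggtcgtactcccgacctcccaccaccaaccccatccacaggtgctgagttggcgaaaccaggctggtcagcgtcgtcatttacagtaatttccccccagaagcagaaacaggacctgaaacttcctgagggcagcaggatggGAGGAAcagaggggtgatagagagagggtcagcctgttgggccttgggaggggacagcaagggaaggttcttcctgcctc
C1qc: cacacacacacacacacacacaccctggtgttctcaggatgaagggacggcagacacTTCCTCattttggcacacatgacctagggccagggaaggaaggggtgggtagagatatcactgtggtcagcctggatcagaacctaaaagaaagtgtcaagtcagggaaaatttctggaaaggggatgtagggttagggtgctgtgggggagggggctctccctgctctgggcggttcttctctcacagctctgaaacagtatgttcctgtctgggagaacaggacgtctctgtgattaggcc

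Ly6c2, a surface protein of classical monocytes, had a similar order, with 8.40 on BMS and 7.23 on CTR, against 8.62 on VAD and 9.09 on VAS. BMS was 1.17 above CTR, a 2.25-fold difference, and 0.70 below VAS. Its close paralogue Ly6c1, expressed by endothelium, stood at 5.45 on BMS and 3.97 on CTR, against 5.04 on VAD and 4.71 on VAS, so CTR was again lowest, and how far the probes tell the 2 copies apart is unknown. Plac8, a small cysteine-rich protein of monocytes and other cells, stood at 8.47 on BMS and 8.99 on CTR, against 8.92 on VAD and 8.67 on VAS, with CTR highest. Among 11 other monocyte genes, Hp, which binds free haemoglobin, differed by -1.20 in CTR minus VAS, and the list median was -0.0034.

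Retnla varied most of all members. It encodes RELM alpha, a secreted product of alternatively activated macrophages that lung epithelium can also make, and stood at 7.42 on BMS and 4.89 on CTR, against 5.83 on VAD and 8.63 on VAS. It was 5.79-fold higher in BMS than in CTR and 6.97-fold lower in VAD than in VAS, so the experiments differed in sign. The controls were themselves 13.4-fold apart, and the mean difference for lowered retinoic acid signalling was -0.13 (limma, adjusted p = 1.0). BMS stood 1.21 below VAS and VAD 0.94 above CTR, so with the other control each difference has the opposite sign. Across all named genes, 9 were 2-fold lower in VAD than in VAS and 2-fold higher in BMS than in CTR, or 0.0388%. Besides Retnla they were Cadm3, Dpp4, E130114P18Rik, Efhd1, Hbb-b1, Ifi204, Ifi211 and Sftpc, named after their values were seen. Sftpc, surfactant protein C of alveolar epithelium, stood at 9.15 on BMS and 7.32 on CTR, against 9.28 on VAD and 10.86 on VAS, and the globin gene Hbb-b1 of red cells at 9.72 on BMS and 7.77 on CTR, against 7.69 on VAD and 9.69 on VAS. The part of such cells in the Retnla values was not tested. The Retnla promoter (chr16:48842359-48842658 on the plus strand) is shown because Retnla had the widest range of the members, and holds 1 match to the core, on the other strand.
Retnla: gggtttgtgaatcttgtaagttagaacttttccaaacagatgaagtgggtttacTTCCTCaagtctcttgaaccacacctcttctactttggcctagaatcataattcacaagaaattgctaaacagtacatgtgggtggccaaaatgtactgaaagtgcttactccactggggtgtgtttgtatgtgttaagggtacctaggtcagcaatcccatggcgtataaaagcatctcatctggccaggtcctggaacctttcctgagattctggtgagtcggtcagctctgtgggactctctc

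**Figure D3:**
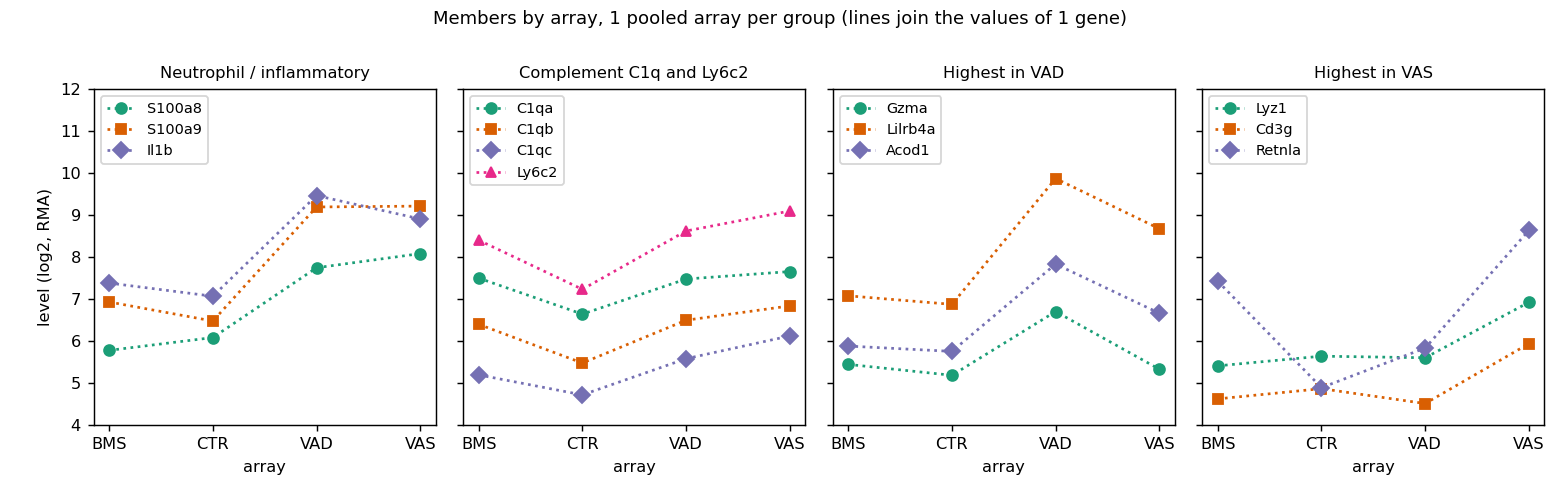
Levels on the log2 scale (y axis) of 13 members on the BMS, CTR, VAD and VAS arrays (x axis), in 4 panels chosen after the values were seen, with dotted lines that only join the values of 1 gene. The neutrophil genes are high in both diet arrays, the C1q chains and Ly6c2 are lowest on CTR, Gzma, Lilrb4a and Acod1 are highest on VAD, and Lyz1, Cd3g and Retnla are highest on VAS.

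The diet comparison set vitamin A deficiency, VAD, against VAS. Here 3 of 39 members were at least 2-fold higher (0.22% of all named genes were) and 3 at least 2-fold lower (0.397% were), and the member median was -0.04, with 23 of 39 below 0 (51.4% of all named genes were). The higher ones were Gzma, Lilrb4a and Acod1. Gzma, a protease of cytotoxic lymphocyte granules, stood at 5.44 on BMS and 5.18 on CTR, against 6.70 on VAD and 5.33 on VAS, so VAD alone was high and was 2.59-fold above VAS. Lilrb4a was 2.29-fold and Acod1 2.25-fold higher. These genes also stood above CTR in VAD, by 1.52 for Gzma, 3.00 for Lilrb4a and 2.08 for Acod1. Against CTR, VAD had 12 of 39 members at least 2-fold higher (0.876% of all named genes were), 0 at least 2-fold lower (0.319% were) and 6 below 0 (51.9% were).

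The lower ones were Retnla, Lyz1 and Cd3g. Lyz1, a lysozyme gene whose value is uncertain because its neighbour Lyz2 on chromosome 10 is nearly identical, stood at 5.41 on BMS and 5.64 on CTR, against 5.60 on VAD and 6.92 on VAS. Cd3g, a chain of the T cell receptor complex, stood at 4.62 on BMS and 4.86 on CTR, against 4.51 on VAD and 5.93 on VAS. For Lyz1 and Cd3g VAS alone stood apart, and the other 3 arrays lay within 0.23 and 0.35. In VAD these genes were thus 2.50-fold and 2.69-fold below VAS but 0.04 and 0.35 below CTR. Cd3g lay below the median of all named values on every array, and Lyz1 lay above it on VAS alone. Of 12 mast cell, basophil and eosinophil genes 10 were below VAS in VAD (51.4% of all named genes were), with a median of -0.25. Only Cpa3, a mast cell protease, passed 2-fold, at -1.12 in VAD minus VAS and -1.30 in CTR minus VAS. Against CTR, 5 of the 12 were lower in VAD (51.9% of all named genes were), with a median of 0.03. Above the median of all named values on no array were 9 of the 12, where 10790 of 23185 named genes were.

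Apart from Gzma and Cd3g, the lymphocyte members differed by under 2-fold between any 2 arrays, with the widest range, 0.88, for Cd79b. Of 10 members, 7 lay below the median of all named values on every array, where 10790 of 23185 named genes were above it on none. Cd79a, a signalling chain of the B cell receptor, ranged over 0.07 across the 4 arrays, Cd8a, a co-receptor of cytotoxic T cells, over 0.16 and Ms4a1, the B cell antigen CD20, over 0.18. Cd79b, the other receptor chain, stood at 5.68 on BMS and 5.44 on CTR, against 5.72 on VAD and 6.32 on VAS. Cd4, the helper T cell co-receptor, stood at 5.19 on BMS and 5.02 on CTR, against 5.54 on VAD and 5.65 on VAS. Cd3e, a further chain of the T cell receptor complex and a genomic neighbour of Cd3g, had an order unlike that of Cd3g. It stood at 8.93 on BMS and 9.35 on CTR, against 9.69 on VAD and 8.99 on VAS. That was far above Cd3g on every array, and above the T cell gene Cd3d, which ran from 5.00 to 5.66. How far the Cd3e value reflects T cell RNA was not tested. The cytotoxic granule genes Nkg7 and Gzmb ran from 5.59 to 6.02 and from 5.52 to 5.93, and neither had the VAD value of Gzma.

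Further lymphocyte genes were mostly lower in VAD than in VAS, by less than 2-fold. In VAD 12 of 13 other T cell genes and 12 of 12 other B cell genes were below VAS, where 51.4% of all named genes were, with medians of -0.31 and -0.34 and none past 2-fold. Icos, a co-stimulatory receptor, differed by -0.78, Il7r, the interleukin 7 receptor, by -0.67 and Bank1, a B cell scaffold, by -0.85. The same lists were also lower in CTR than in VAS, for 13 of 13 and 9 of 12 genes (49.8% of all named genes were). Against CTR, 7 of 13 and 7 of 12 were lower in VAD (51.9% of all named genes were), with medians of -0.02 and -0.10. Above the median of all named values on no array were 10 of the 13 and 6 of the 12, where 10790 of 23185 named genes were. Other cytotoxic genes had a median of 0.01 in VAD minus VAS, and Ccl5, a chemokine of T and natural killer cells, stood at 7.42 on BMS and 7.42 on CTR, against 8.36 on VAD and 8.18 on VAS.

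**Figure D4:**
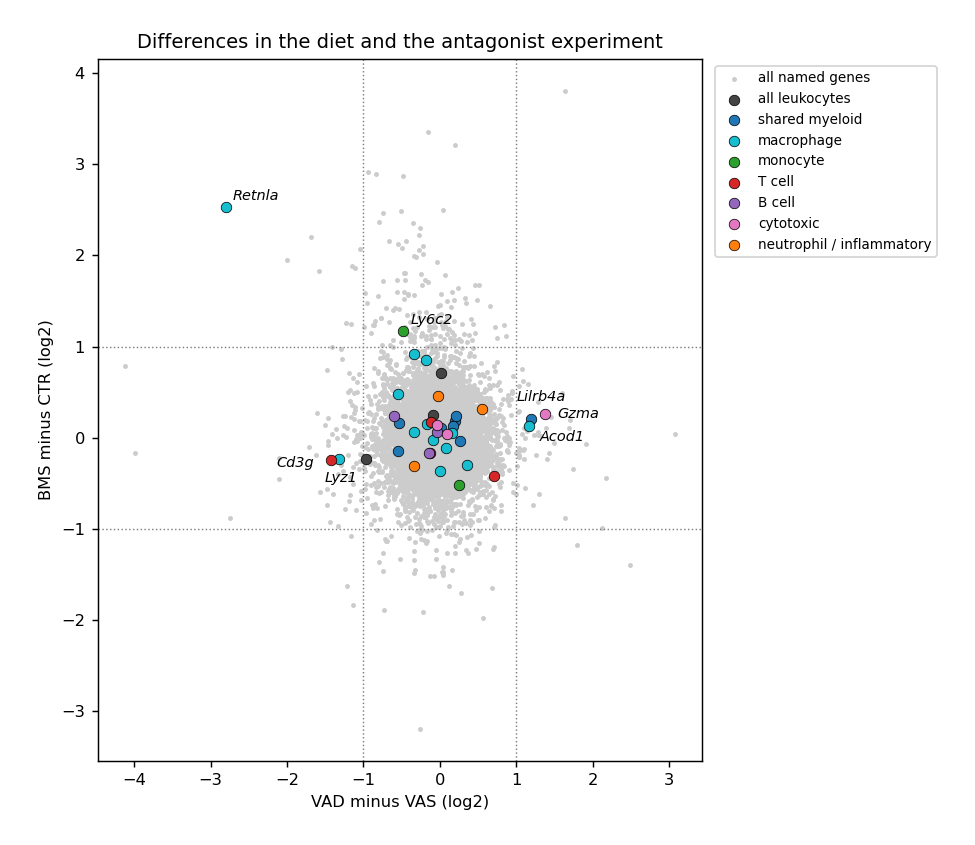
BMS minus CTR (y axis) against VAD minus VAS (x axis), both on the log2 scale, for all 23185 named genes in grey and the 39 members in colour by lineage, with dotted lines at 2-fold. Retnla stands alone among members at the upper left, Gzma, Lilrb4a and Acod1 lie past 2-fold on the right, Cd3g and Lyz1 on the left, and Ly6c2 above.

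The antagonist comparison set receptor blockade, BMS, against CTR. Only Retnla and Ly6c2 among the 39 members were at least 2-fold higher (0.664% of all named genes were), and 0 were 2-fold lower (0.289% were). The member median was 0.13, with 25 of 39 above 0 and 14 below (50.8% of all named genes were below). C1qb, C1qa and Coro1a followed, at 0.92, 0.86 and 0.71, and Plac8 and Cd3e had the lowest differences, at -0.52 and -0.42. With VAS in place of CTR, 10 members were 2-fold lower in BMS (1.09% of all named genes were), 0 were 2-fold higher (0.401% were) and 37 were below 0 (49.7% were). Fibroblast genes were higher in BMS than in CTR, with 13 of 13 above 0 and a median of 0.41 in BMS minus CTR, and summed linear levels of 27833 on BMS and 21941 on CTR, against 23968 on VAD and 24510 on VAS. Smooth muscle genes were lower in BMS for 11 of 11, with a median of -0.16, and pericyte and vascular muscle genes for 9 of 10, with a median of -0.27. The part of these cell types in the leukocyte values was not tested.

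Both treatments together, VAD and BMS against VAS and CTR, gave no call. In limma with the experiment as a block, 0 of 39 members passed an adjusted p of 0.05 (0.0% of all named genes did), with a lowest adjusted p of 0.98. At an unadjusted p under 0.05 there were 2 higher members, Gzma and Il1b (1.61% of all named genes were), and 2 lower ones, S100a8 and Cd52 (2.44% were), where 4.05% of all named genes passed in either direction. Their mean differences were 0.82, 0.43, -0.32 and -0.60. The fit has 1 residual degree of freedom, and a count of 0 does not show that levels were equal.

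**Figure D5:**
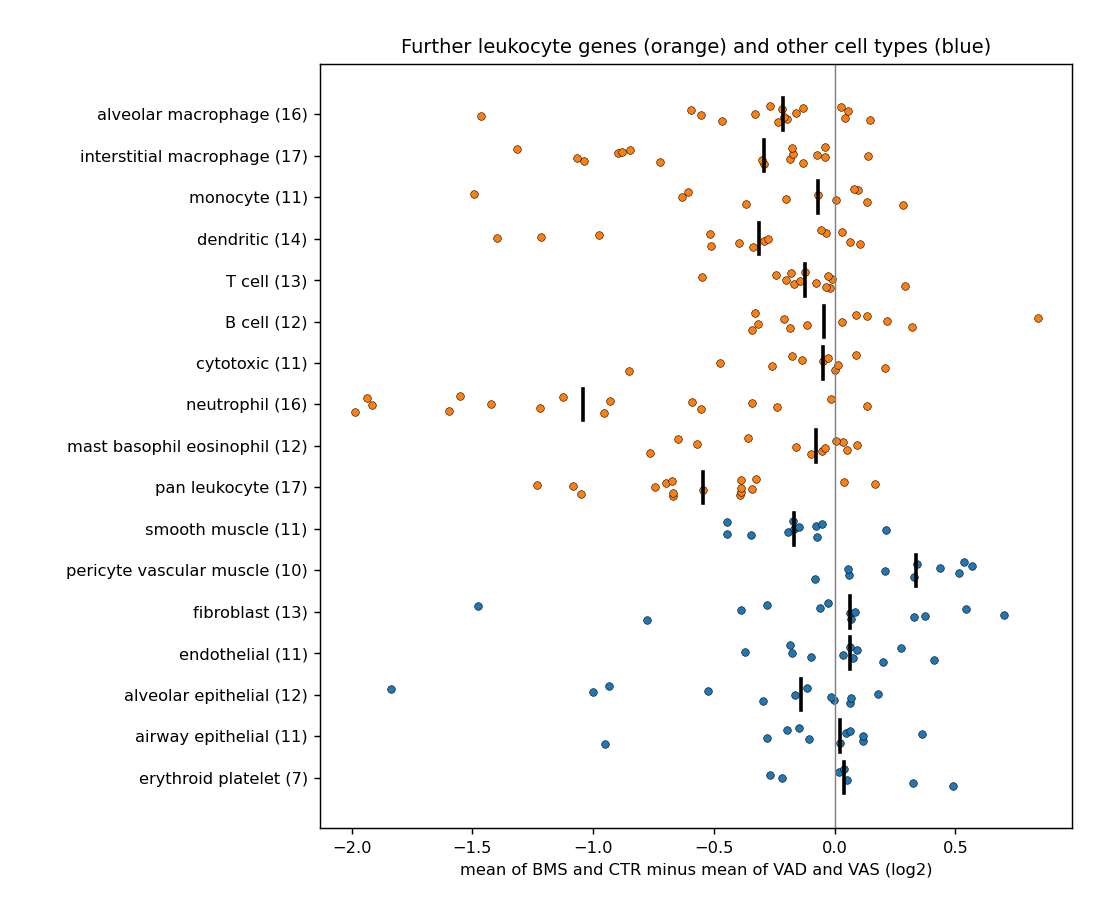
Mean of BMS and CTR minus mean of VAD and VAS on the log2 scale (x axis) for each gene of 17 further lists (rows, number of measured genes in brackets), leukocyte lists in orange and other cell types in blue, with a black bar at each list's median. The neutrophil list lies furthest left with a median of -1.04, followed by the genes of all leukocytes at -0.55, and the pericyte list lies furthest right at 0.34.

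Markers of other cells were set beside the difference between experiments. The smooth muscle list had a median of -0.17 between antagonist and diet experiment, pericyte and vascular muscle genes 0.34, fibroblast genes 0.06 and endothelial genes 0.06. Alveolar epithelial genes had a median of -0.14, with 5 of 12 lower on both antagonist arrays (19.8% of all named genes were). Among the 5 were Sftpc, Sftpa1 and Slc34a2. The summed linear level of the alveolar list was 1338 on BMS and 895 on CTR, against 1441 on VAD and 2976 on VAS. The summed level of the 39 leukocyte genes was 4613 on BMS and 4481 on CTR, against 8695 on VAD and 7934 on VAS. The median level of the 39 was 5.77 on BMS and 5.77 on CTR, against 6.64 on VAD and 6.82 on VAS, so VAD was highest by the sum and VAS by the median, and the alveolar sum was highest on VAS too. The sum weighs the highest genes most, among them Lilrb4a and Cd3e, at 9.87 and 9.69 on VAD against 8.67 and 8.99 on VAS. In VAD 16 of the 39 were above VAS and 23 below. The part of other cell types in the leukocyte differences was not tested.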

How the data were processed

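RNA of sorted cells, pooled from 3 mice per group, was hybridised to 1 expression array each for BMS, CTR, VAD and VAS. The deposited log2 values were made by the authors with RMA (background correction, normalization between arrays, summary per probe set) as the submitters' processing notes state, with the affy package (1.36.1) under R (2.15.1). No source used here says whether the 4 arrays were normalized alone. Such normalization hides a shift shared by most genes, and 1 array per group limits the precision.

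Of 25206 probe sets, 23185 had 1 gene symbol in GEO's platform annotation, 0 had more than 1, and 2021 stayed unnamed. Every named gene matched RefSeq (GRCm38.p6) by Entrez number, and 0 symbols changed. Quartiles were alike on all arrays (medians 5.97 to 6.02).

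Differences of log2 values were taken over all named genes without a filter on low values, since a filter passed through the high group would fix a direction. At least 2-fold was counted, with no test between single arrays. limma 3.58.1 in R 4.3.3 (lmFit, eBayes, Benjamini-Hochberg over all named genes) fitted experiment and lowered retinoic acid signalling on all 4 arrays, 2-sided, with 1 residual degree of freedom, and was tested on simulated data. Promoter sequences are RefSeq's. Python 3.11.15, numpy 2.4.6, pandas 2.3.3 and matplotlib 3.10.9 were used. Every measured member is named, and of each further list up to 4 genes by size of CTR minus VAS; Elane, Mpo and the genes noted as such were named after their values were seen. The members and lists were chosen with earlier results of these data known. Alternatives were 1.5-fold and 3-fold, quantile and cyclic loess normalization, a filter on the mean of the 4 arrays, the other control, other limma settings and leaving out each array.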

Additional observations from a re-analysis of the deposited data

Results flagged for a closer look

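For Retnla, VAD minus VAS was -2.80 and BMS minus CTR was 2.53 on the log2 scale. It is the member whose 2 experiments passed 2-fold in opposite directions, with 1 array per group, and the difference between the experiments was not tested.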

How the results depend on the processing

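The labels give no replicate numbers, and the limma fit reported for lowered signalling already has the experiment as its block. Quantile normalization and cyclic loess kept every count of members past 2-fold within 1.5 times and moved 0 of 150 single differences and lineage medians each by over 1.5-fold. For VAD minus VAS, 3-fold gave 0 higher and 1 lower, 1.5-fold gave 5 lower, the filter on the mean gave 1 lower, and CTR in place of VAS gave 12 higher and 0 lower. For BMS minus CTR, 1.5-fold gave 5 higher, 3-fold 1 higher, and VAS in place of CTR 0 higher and 10 lower. For CTR minus VAS, 1.5-fold gave 23 lower and 3-fold 7 lower. With the other control, Retnla reversed to 0.94 (VAD minus CTR) and -1.21 (BMS minus VAS), and Ly6c2 to -0.70 (BMS minus VAS). The filter on the mean, chosen after seeing the data for this count, left 17 members lower on both antagonist arrays, of 21 that passed it. Of the 21, 4 passed with an antagonist mean below the median, through the diet arrays, and 0 the other way, so the filter favours the direction counted, and of the 17 whose means both reached it 13 were lower on both antagonist arrays. In limma, members called for the experiment were 4 with that filter (S100a8, which passes it through the diet arrays, S100a9, Il1b and Tyrobp), where fewer genes were tested, and 0 in the other fits; given how the filter favours this direction, the 4 are no support for it. Leaving out each array in turn (without the other term) gave 0 to 0 calls for the experiment, with a lowest adjusted p from 0.0949 to 0.42, and 0 to 0 for lowered signalling. The lone array of a side is then assumed to vary like the other groups.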
